A study of Mus musculus with 30 samples.

Results

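The regions described here are the 3031 promoter intervals at which chromatin immunoprecipitation followed by sequencing (ChIP-seq) of POU6F1 gave a peak against both controls of the experiment. They were selected on the peak calls. An interval was kept when the replicate peaks called against an IgG precipitation overlapped each other, when that overlap also met the overlap of the replicate peaks called against a precipitation from cells with mCherry alone, and when its nearest edge lay within 1 kb of the transcription start site (TSS) of a protein-coding gene. They were 16.8% of the 17994 intervals shared by both replicates against IgG. They were also 23.9% of the 12706 such intervals at promoters, of which the other 9675 were seen against IgG only. The 3031 regions lay at 3372 of 21951 protein-coding genes (15.4%).

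The chromatin came from mouse embryonic stem cells (mESCs), derived from *Dis3* flox/flox blastocysts, 48 h after transfection with a plasmid that drives *Pou6f1-mCherry* from the pCAG promoter. POU6F1-mCherry was precipitated with an anti-mCherry antibody in 2 replicates, and each replicate was compared with 1 anti-IgG precipitation of *Pou6f1-mCherry* cells and with 1 anti-mCherry precipitation of cells that received mCherry without POU6F1. The expression data were counts of polyadenylated RNA, captured with oligo-dT beads, in 23 single embryos from matings of *Dis3* heterozygous (het) mice, whose null allele was made with Cas9. The stage E2.5 (days after conception) had 6 wild-type, 2 het and 4 null embryos and E2.75 had 3 wild-type, 5 het and 3 null embryos. POU6F1 was thus overexpressed in the mESCs and no mESC expression file was used here, so the identity of these cells was not checked by markers, and chromatin and RNA come from different cells.

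POU6F1 belongs to the POU family of transcription factors, which contact DNA through a POU-specific domain and a homeodomain. The classical site of the family is the octamer, which OCT4 binds in pluripotent cells. DIS3 is a ribonuclease of the RNA exosome, the complex that processes and degrades RNA in the nucleus and the cytoplasm. The ChIP-seq addressed which sites POU6F1 occupies, and the embryos what the loss of *Dis3* does to RNA levels.

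The reference sequence under the summits was read for all member regions, and 7 windows of 200 bp are printed to show what lay there, in GRCm38.p6 and in the direction of transcription of the gene. *Znrf3* (minus strand, chr11:5444952-5445151), *Morc3* (plus strand, chr16:93832042-93832241) and *Nup107* (minus strand, chr10:117792703-117792902) were among the 12 regions of highest enrichment. *Zfp42* (minus strand, chr8:43307003-43307202) is the stem cell gene also known as Rex1. *Ell* (plus strand, chr8:70539488-70539687), *Scd2* (plus strand, chr19:44293829-44294028) and *Sox15* (plus strand, chr11:69654849-69655048) differed between null and het embryos. Capitals mark every match to the 13 motifs searched, on either strand, and overlapping matches run together.
Znrf3: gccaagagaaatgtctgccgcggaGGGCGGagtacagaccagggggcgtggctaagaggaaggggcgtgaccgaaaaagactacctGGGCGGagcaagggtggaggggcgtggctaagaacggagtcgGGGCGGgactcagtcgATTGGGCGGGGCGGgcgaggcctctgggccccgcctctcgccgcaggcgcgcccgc
Morc3: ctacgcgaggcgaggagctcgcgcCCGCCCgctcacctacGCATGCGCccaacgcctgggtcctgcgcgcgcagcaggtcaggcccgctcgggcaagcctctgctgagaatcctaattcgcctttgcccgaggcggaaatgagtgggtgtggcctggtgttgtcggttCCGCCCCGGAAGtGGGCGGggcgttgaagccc
Nup107: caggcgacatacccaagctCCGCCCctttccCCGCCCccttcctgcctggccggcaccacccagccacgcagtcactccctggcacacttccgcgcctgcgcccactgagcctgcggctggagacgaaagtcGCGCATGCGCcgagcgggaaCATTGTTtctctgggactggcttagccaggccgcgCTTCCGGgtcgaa
Zfp42: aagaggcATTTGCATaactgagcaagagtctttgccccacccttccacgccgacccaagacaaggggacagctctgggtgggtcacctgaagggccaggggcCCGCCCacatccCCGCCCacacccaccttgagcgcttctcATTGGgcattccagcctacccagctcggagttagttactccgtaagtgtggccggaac
Ell: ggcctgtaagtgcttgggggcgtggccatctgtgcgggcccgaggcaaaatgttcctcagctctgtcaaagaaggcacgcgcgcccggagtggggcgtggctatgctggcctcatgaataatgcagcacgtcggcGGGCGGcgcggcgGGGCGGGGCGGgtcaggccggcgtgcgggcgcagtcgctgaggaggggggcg
Scd2: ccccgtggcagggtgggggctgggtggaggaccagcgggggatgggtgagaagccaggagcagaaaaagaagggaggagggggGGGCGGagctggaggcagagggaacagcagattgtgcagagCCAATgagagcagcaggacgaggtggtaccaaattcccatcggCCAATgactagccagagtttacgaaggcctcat
Sox15: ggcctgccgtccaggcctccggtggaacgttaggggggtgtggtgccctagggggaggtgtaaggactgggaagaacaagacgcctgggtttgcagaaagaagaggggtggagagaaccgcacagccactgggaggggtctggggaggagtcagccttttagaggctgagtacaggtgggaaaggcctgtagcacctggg
The *Znrf3* window held 5 GC boxes and the *Ell* window 3. The *Nup107* window carried 2 overlapping NRF1 matches, in opposite orientations, in a run of capitals that reads the same on either strand. *Zfp42* held the only octamer of these windows, and *Sox15* held none of the 13 motifs.

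Over all 3031 regions, the window around the mid-point of the 2 replicate summits against IgG was rich in GC boxes. It rarely held the POU octamer or the homeodomain core. The GC box (GGGCGG), which SP and KLF factors bind, stood in 81.3% of the member windows. It stood in 59.6% of the windows of promoter intervals seen against IgG only and in 39.9% of 200 bp windows at the starts of 21938 protein-coding genes. The NRF1 motif (GCGCATGC), named for a regulator of genes for mitochondrial proteins, was in 11.2% of the members, 3.61% of the IgG-only intervals and 2.69% of the gene starts. The E-box (CACGTG) was in 12.4%, 7.59% and 5.66%, and the ETS core (CCGGAAG) in 16.001%, 10.8% and 9.58%. The CCAAT box (CCAAT) was in 30.3% of the members against 21.3% and 28.1%. Thus 4 of these 5 motifs had their highest share in the members and their lowest at gene starts in general, while the share of CCAAT boxes differed little from that of gene starts.

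The 2 motifs of the POU and homeodomain families among the 13 were rare. No site determined for POU6F1 itself was searched. The POU octamer (ATGCAAAT) was in 22 member windows (0.726%), against 0.672% of the IgG-only intervals and 0.880% of gene starts. The homeodomain core (TAATTA) was in 16 (0.528%), against 0.310% and 2.35%. Neither string was more frequent in the members than at gene starts, and both were slightly more frequent than in the IgG-only intervals. Both strings hold more A and T than G and C. The median GC content was 68.0% in member windows, 67.5% in IgG-only windows and 58.5% at gene starts. The part of base composition in these shares was not tested. Of the other 6 motifs, the cAMP response element (TGACGTCA) was in 4.03%, 2.09% and 2.01% of the 3 sets and the ZBTB33-type motif (TCGCGAGA) in 2.34%, 1.26% and 1.13%. The YY1 motif (ATGGCGGC) was in 3.07%, 3.68% and 2.93%, the TATA box (TATAAA) in 1.45%, 1.23% and 8.07%, the GATA-type motif (AGATAA) in 1.02%, 1.56% and 5.34%, and the SOX-type motif (CATTGTT) in 0.726%, 0.682% and 1.64%. In all, 173 member windows held none of the 13 motifs and 463 held 3 or more. A match is a run of letters and not a measured site, and these shares are given without a test since regions are not replicates.

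The matches were concentrated at the summit. In bins of 50 bp, a GC box was found in 38.1% of the member regions per bin within 100 bp of the summit and in 10.2% per bin between 300 and 500 bp away. The same values for IgG-only intervals were 22.9% and 9.51%, so that the sets differed near the summit mid-point and hardly in the flanks. The gap between the replicate summits had a median of 31 bp in the members and 87 bp in IgG-only intervals. The upper quartiles were 61 and 264 bp, so the mid-point lay farther from the summits in many IgG-only intervals. This limits the comparison of the sets here and in the window shares above, and its part was not tested. For NRF1, the values were 3.09% and 0.235% in the members and 0.982% and 0.165% in IgG-only intervals. The CCAAT box was flatter, at 9.85% and 5.34% in the members.

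**Figure D1:**
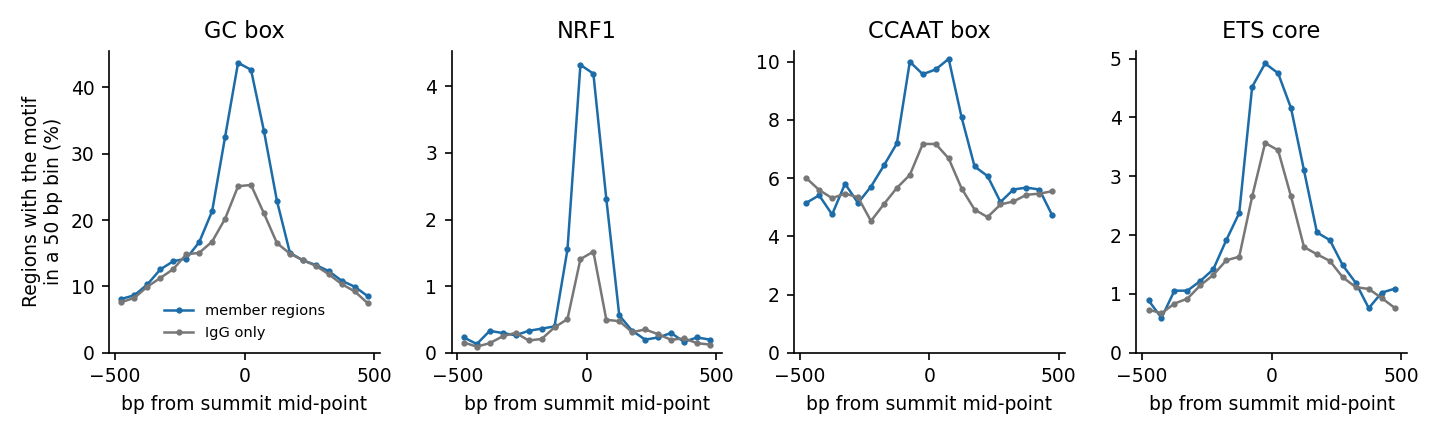
Share of regions (%) with a motif in each 50 bp bin, by distance (bp) from the summit mid-point, for the 3031 member regions (blue) and the 9675 promoter intervals seen against IgG only (grey), with a separate vertical scale in each panel. Within 100 bp of the summit the GC box averaged 38.1% per bin in the members and 22.9% in the others, and between 300 and 500 bp 10.2% and 9.51%.

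Base composition separated the members from gene starts more than from the IgG-only intervals. The median GC content was 68.0% in the member windows, 67.5% in IgG-only windows and 58.5% at gene starts. The observed over expected number of CpG dinucleotides, a measure of CpG island promoters that escape the usual loss of CpG, had a median of 0.853, 0.816 and 0.601. A GC content over 50% with a ratio over 0.6 was met by 90.2% of the members, 79.4% of the IgG-only intervals and 47.8% of gene starts.

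Members differed among themselves in sequence. They were divided into 3 equal groups by the mean log2 fold enrichment over the 4 lists. The share with a GC box was 72.0% in the weakest group, 82.9% in the middle group and 88.9% in the strongest group. The share with NRF1 was 8.32%, 11.4% and 13.7%, whereas that with CCAAT was 37.1%, 31.1% and 22.7%. The GC content had medians of 66.0%, 68.5% and 69.5%, so base composition moved with enrichment too, and its part in the motif shares was not tested.

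The members lay close to the TSS. Member intervals had a median width of 443 bp (33 to 1828 bp), and 2763 of them (91.2%) had a TSS inside, against 55.4% of the IgG-only intervals, whose median width was 228 bp. The summit lay within 100 bp of the nearest TSS in 2070 members (68.3%) and in 53.7% of the IgG-only intervals. It lay upstream of that TSS in 78.6% of the members and 51.4% of the others, with medians of -47 and -3 bp. The members thus sat just before the start, in the stretch where the core promoter lies, and the IgG-only intervals spread into the transcribed side. The wider gap between replicate summits in IgG-only intervals limits this comparison too, and its part was not tested. Only 96 members (3.17%) had the summit over 500 bp away. A TSS on both strands within the reach of the interval was found for 403 members (13.3%), 10.1% of the IgG-only intervals and 12.1% of all gene starts.

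**Figure D2:**
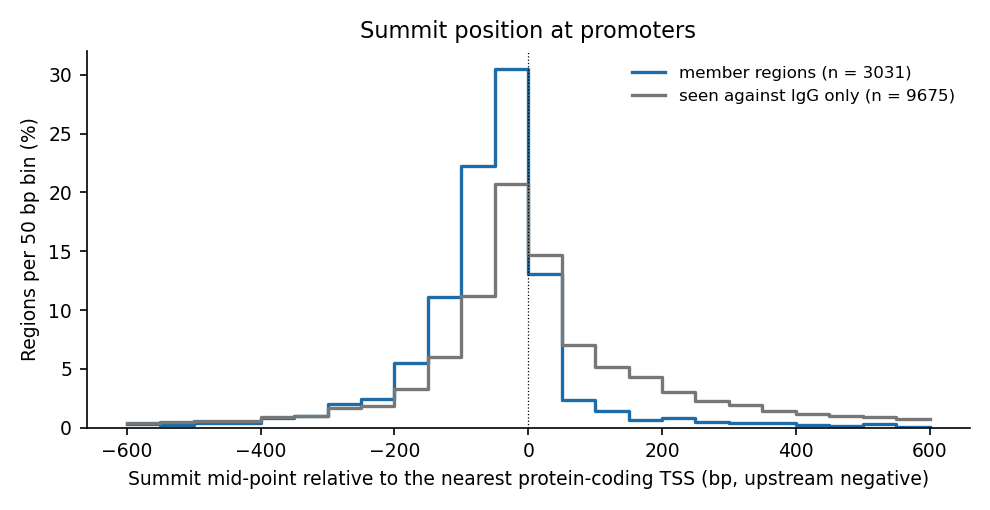
Position (bp) of the summit mid-point from the nearest protein-coding TSS, as the share of regions (%) per 50 bp bin, for the 3031 member regions (blue) and the 9675 promoter intervals seen against IgG only (grey). Beyond the plotted range lie 68 and 725 of them. The 50 bp before the TSS hold 30.5% of the members and 20.7% of the others.

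The enrichment itself chose the members and is given as a description. The median fold enrichment over the control, as the authors' peak caller gave it at the summit, was 24.2 in replicate 1 and 9.31 in replicate 2 against IgG, and 14.8 and 4.87 against mCherry. The intervals seen against IgG only had medians of 11.9 and 5.02 against IgG. Membership therefore followed the height against IgG, since in 10 equal groups by IgG enrichment 1.10% of the lowest group were members and 91.1% of the highest. The peak lists also differed in size, with 82694 and 24524 peaks against IgG and 31348 and 3630 against mCherry in replicates 1 and 2, and the shortest of them limited what all 4 could share. Both lists of a replicate rest on the same precipitate, and each control is 1 library used for both replicates, so the support of the 2 controls is not independent. Across members, Spearman correlations of the fold were 0.701 between replicates against IgG and 0.538 against mCherry. Between the controls they were 0.704 in replicate 1 and 0.315 in replicate 2, where points share the precipitate.

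**Figure D3:**
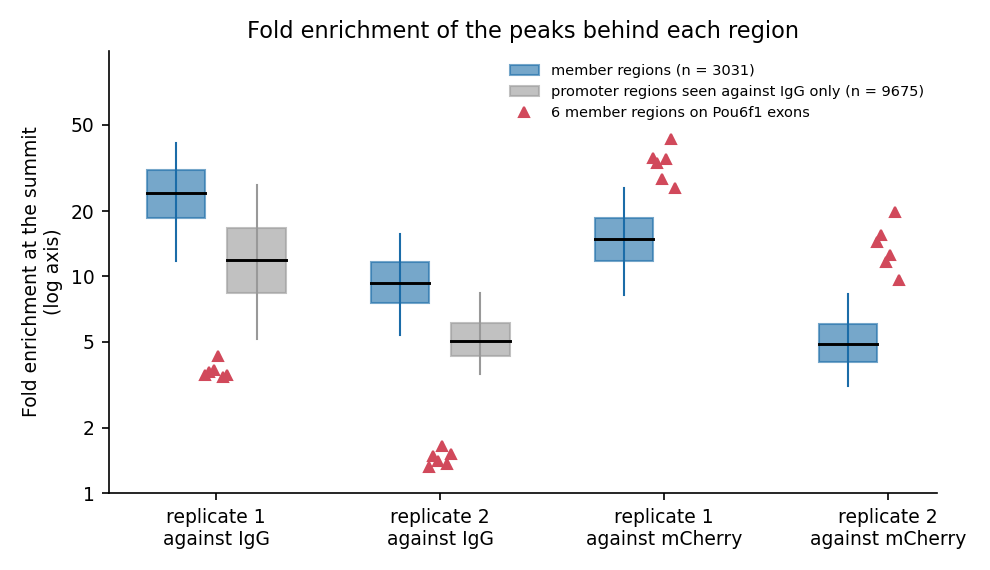
Fold enrichment at the summit (log axis) in each of the 4 peak lists, with boxes from the 25th to the 75th percentile, lines from the 5th to the 95th and the median as a bar. Member regions have medians of 24.2, 9.31, 14.8 and 4.87, promoter intervals seen against IgG only 11.9 and 5.02, and the 6 intervals on *Pou6f1* exons (triangles) lie below both against IgG and above the member boxes against mCherry.

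The 12 regions of highest mean log2 enrichment covered the starts of 13 genes. The strongest was *Znrf3* (chr11:5444709-5445424), which encodes a membrane ubiquitin ligase that lowers WNT receptors, with 54.4- and 21.4-fold against IgG and 35.0- and 11.8-fold against mCherry. *Cdc42se2* (chr11:54787446-54787976), a CDC42 effector, had 58.6- and 21.7-fold against IgG and 33.6- and 9.65-fold against mCherry. *Morc3* (chr16:93832015-93832536), a chromatin ATPase, had 39.04- and 16.7-fold against IgG and 37.7- and 15.4-fold against mCherry, the highest value in replicate 2 against mCherry outside *Pou6f1*. These 3 were followed by *Ep400* (a chromatin remodeller), *Vps26a* (retromer), *Nup107* (nuclear pore), *Metap1* (methionine aminopeptidase), *Ppp1cc* (protein phosphatase 1), *Zdhhc20* (palmitoyltransferase), *Fam136a*, *Ulk1* (autophagy kinase) and the divergent start of *Senp8* and *Myo9a*. All of them except *Morc3* had the summit upstream of the TSS, from -227 bp at *Ep400* to -32 bp at *Vps26a*. At the other end, the smallest interval was at *Fem1a* (chr17:56256789-56256821), where the lists shared 33 bp and the folds were 4.59 and 3.21 against IgG and 6.52 and 5.56 against mCherry. The member nearest to the distance limit was *Nrn1* (chr13:36736127-36736478), 996 bp from the TSS, and the nearest interval left out was *Ppp2r3d* (chr9:124425163-124425376), at 1009 bp.

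The *Pou6f1* gene itself held 6 member intervals, more than any other gene, and they had a different profile. Between chr15:100579787-100580133 and chr15:100591753-100592118 all 6 overlapped annotated exons. Their enrichment against mCherry was 25.6- to 43.1-fold in replicate 1 and 9.65- to 19.9-fold in replicate 2. Against IgG it was 3.45- to 4.30-fold and 1.32- to 1.65-fold. Thus they were high against cells without the *Pou6f1* plasmid and low against cells with it, the reverse of the usual order, since 3.87% of all members in replicate 1 and 4.30% in replicate 2 were higher against mCherry than against IgG. The transfected plasmid carried the *Pou6f1* coding sequence, and its part in these intervals was not tested. Without them there were 3025 member regions.

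Gene families were counted by gene symbol to show which promoters were included. A family can thus hold genes that only share the start of its symbols, such as *Ccndbp1* among the cyclins. Of 52 splicing and hnRNP genes 23 were at members (44.2%), led by *Hnrnpm* and *Hnrnph3*, and of 69 Rab GTPases, which direct vesicle traffic, 29 were (42.0%), led by *Rab39* and *Rab22a*. Translation initiation factors had 20 of 55 (36.4%), with *Eif1* and *Eif5a* the strongest, and proteasome subunits 18 of 50 (36.0%). The shares were lower for mitochondrial ribosomal proteins (22 of 78, 28.2%), cyclins and cyclin-dependent kinases (13 of 49, 26.5%), oxidative phosphorylation (21 of 90, 23.3%), ubiquitin-conjugating enzymes (8 of 37, 21.6%), cytosolic ribosomal proteins (21 of 102, 20.6%) and tRNA synthetases (4 of 20, 20.0%). Below the 15.4% of all protein-coding genes were POU genes (2 of 16, *Pou2f1* and *Pou6f1*), zinc finger genes named Zfp (46 of 394, 11.7%), replication-dependent histones (2 of 67, 2.99%), Hox genes (1 of 39, 2.56%) and olfactory receptors (0 of 1135). No test was made of these counts.

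Of 34 lineage factors, which set or mark the early cell types, 4 had a member region. These were *Klf2* and *Klf4*, Krüppel-like factors of the naive state, *Zfp42*, and *Yap1*, the Hippo pathway coactivator. A further 22, with *Pou5f1* (OCT4) and *Sox2* among them, had an interval against IgG only, and 8, with *Nanog* and *Cdx2* among them, had no interval shared by both replicates within 1 kb of a TSS. Peaks of 1 replicate and peaks farther away were not counted. Of 27 genes of the RNA exosome and its cofactors, 10 had a member region, among them the core subunits *Exosc5* and *Exosc9* and the helicase *Mtrex*, and 13, *Dis3* itself among them, an IgG-only interval.

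Genes with a member region were widely expressed in the embryos. The median level in wild-type embryos was 5.02 CPM (counts scaled to a common library total) per kb of exon, against 2.13 for genes with an IgG-only promoter interval, 0.0072 for genes with neither and 0.373 over all protein-coding genes. In het and null embryos the members' medians were 5.43 and 4.67, and the medians of single embryos spanned 3.83 to 5.61 in wild-type, 4.39 to 5.95 in het and 3.90 to 5.06 in null embryos, so that the genotypes overlapped. A level over 1 CPM per kb was reached by 76.8% of the member genes in wild-type embryos, and 79 of them (2.35%) had no count there. The share of genes with a member region was 1.35% among genes with no count and 33.7% in the highest of 10 equal groups of the others. The order of expression among the strongest regions was loose, since *Fam136a* had 114 and *Znrf3* 3.13 CPM per kb in wild-type embryos.

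**Figure D4:**
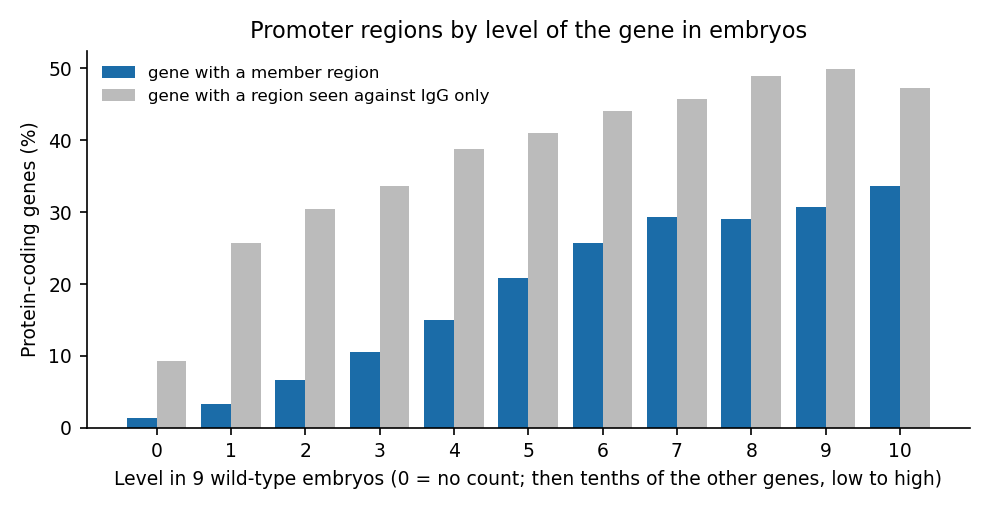
Share of protein-coding genes (%) with a member region (blue) or an IgG-only promoter interval (grey), for genes with no count in wild-type embryos and for 10 equal groups of the others by wild-type level (CPM per kb of exon). The member share is 1.35% at no count, 3.30% in the lowest group and 33.7% in the highest.

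The embryos differed in more than genotype. Counts assigned to genes ranged from 1690192 to 14015980 per embryo, with a median of 8030848. Reads outside annotated exons were 32.3% to 43.9% in null embryos and 21.2% to 27.9% in het embryos, without overlap, and 20.99% to 33.4% in wild-type embryos, which overlapped null embryos. The share of ERCC spike-in reads was 3.26% to 7.03% in null, 2.06% to 4.64% in het and 2.53% to 7.44% in wild-type embryos. *Dis3* was at 0 to 21.5 CPM in null, 30.4 to 59.2 in het and 18.1 to 147 in wild-type embryos, the lowest wild-type value being that of E2.5 replicate 6, which lay within the null range. Markers of the preimplantation embryo were detected in all genotypes, 6 of 6, with sums of 1088 to 1895 CPM in null, 1310 to 2051 in het and 556 to 2130 in wild-type embryos. Of 10 cumulus and granulosa markers, 7 were detected in null, 2 in het and 5 in wild-type embryos. *Inha*, *Ptx3* and *Nr5a1* were at 0 in every genotype. The sums of the 10 markers, mostly *Amhr2*, were 20.7 to 68.8 CPM in null, 5.65 to 33.9 in het and 1.47 to 34.5 in wild-type embryos. The part of these differences in the results below was not tested, and in whole embryos fewer cells of a type and less RNA per cell cannot be told apart.

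Of 3367 member genes in the count tables, 3025 passed the filter on low counts, which left 342 untested. Between null and het embryos, 36 of the 3025 rose (1.19%) and 75 fell (2.48%) by edgeR's quasi-likelihood test, at a Benjamini-Hochberg adjusted p under 0.1 and a change over 2-fold. Over all genes tested 3.67% rose and 2.06% fell, and over protein-coding genes tested 1.63% rose and 2.32% fell. The differences of the members from these shares were not tested, and the share that fell was near the background. Their median log2 fold change was -0.12, beside -0.06 for protein-coding genes and 0.02 for all genes. When libraries were scaled by the ERCC spike-ins, the median of all genes moved to -1.08 and that of members to -1.20. With this scaling 8 of 3025 member genes were called up and 1341 down, beside 289 up and 4487 down of 13415 genes. The balance of directions thus rests on the scaling. The 8 member genes were among the 36, of which 7 had a fold change of the opposite sign under this scaling. All 75 that fell kept their call. Het embryos were mostly E2.75 and null embryos mostly E2.5, and with stage as a covariate 34 rose and 69 fell. Of the 36 that rose in the main fit 23 kept their call with this covariate, and of the 75 that fell 56 did. Without E2.5 null replicate 4 the counts were 23 up and 48 down, and without E2.75 het replicate 1 they were 27 and 45.

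Counts by strength of the region ran from 9 up and 17 down among 1008 genes of the weakest regions to 13 and 25 of 1008 in the middle and 14 and 33 of 1009 at the strongest. The medians were -0.06, -0.10 and -0.20, and no test was made of this order. Of the 36 genes that rose, 23 overlapped another annotated gene and 10 shared their region with another protein-coding gene, and of the 75 that fell, 38 and 14 did. Reads were counted without strand, so overlapping genes cannot be told apart. The lowest null value exceeded the highest het value for 17 of 3025 member genes (0.562%; all genes 2.2%) and the highest null value was under the lowest het value for 24 (0.793%; all genes 0.686%).

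Among the genes that rose, *Ell*, an elongation factor of RNA polymerase II, had the smallest adjusted p. It was at 72.8, 102 and 212 CPM (lowest, median, highest) in 7 null embryos, 6.31, 17.2 and 34.8 in 7 het embryos and 3.39, 11.4 and 22.5 in 9 wild-type embryos. The null embryos lay apart from both other genotypes, with a log2 fold change of 2.62 (SE 0.39, edgeR adjusted p = 3.08e-04) against het. *Mageb3*, of the MAGE family best known from germ cells and tumours, was at 6.23, 18.98 and 71.2 CPM in null and at most 1.21 in het embryos, a log2 fold change of 6.72 (SE 1.05, edgeR adjusted p = 4.02e-04). Wild-type embryos reached 1.01 CPM. Its region also covers the start of *Ctdspl2*. *Mageb3*, *Gm9887*, *Lipe*, *Thap8*, *Sox15*, *Bcl9*, *Scd2*, *Srebf2*, *Pou6f1* and *Exosc9* overlap another annotated gene, which limits each of their values, whereas *Ell*, *Sft2d3*, *Cox6b2*, *Ifnar1*, *Ccne1* and *Zfp438* do not.

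*Gm9887*, whose region also covers the start of *Arf6*, was at 10.99, 18.8 and 43.9 CPM in null and at most 2.14 in het embryos, and *Sft2d3*, a vesicle transport gene, at 29.9, 55.7 and 94.7 CPM against 6.72, 8.09 and 13.9. Neither overlapped between null and het embryos, with log2 fold changes of 4.46 (SE 0.92) and 2.75 (SE 0.57) and edgeR adjusted p of 0.00537 and 0.00551. Wild-type embryos reached 3.89 and 19.8 CPM, also below all null embryos. *Lipe*, hormone-sensitive lipase, was at 16.7, 45.6 and 61.9 CPM against 3.62, 10.1 and 15.1 in het embryos, a log2 fold change of 1.97 (SE 0.43, edgeR adjusted p = 0.00787), again without overlap. With ERCC scaling it was 0.89 and no longer called, and wild-type embryos, at up to 21.035 CPM, overlapped null embryos. *Cox6b2*, the testis form of a cytochrome c oxidase subunit, was at 5.78, 55.9 and 123 CPM against 1.48, 5.38 and 27.0 in het and 1.33, 4.79 and 25.1 in wild-type embryos, with overlap, at a log2 fold change of 2.68 (SE 0.73, edgeR adjusted p = 0.0342). *Thap8*, whose regions also cover the start of *Wdr62*, had no count in the 7 het embryos and 1.03, 3.97 and 8.38 CPM in null embryos, at least 113-fold higher over a floor of 3 counts over the group (edgeR adjusted p = 0.0126). Wild-type embryos were at 0, 0 and 5.36 CPM, with overlap, and null against wild-type was not called (edgeR adjusted p = 0.518), so the fold rests on het embryos at 0.

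*Sox15*, a SOX factor of pluripotent cells, was at 511, 791 and 1365 CPM in null, 167, 265 and 470 in het and 267, 584 and 895 in wild-type embryos. Null embryos lay above all het embryos, at a log2 fold change of 1.59 (SE 0.30, edgeR adjusted p = 0.00212), and overlapped wild-type embryos, at 0.71 (edgeR adjusted p = 0.171). With ERCC scaling the change against het was 0.44 and no longer called. *Sox15* and *Cox6b2* are genes the study chose on these samples, and of its 16 named genes 3 were members, the other one being *Pou6f1*. *Pou6f1* RNA was at 17.7, 29.0 and 78.4 CPM in null and 7.99, 15.8 and 34.9 in het embryos, with overlap, at a log2 fold change of 1.38 (SE 0.54, edgeR adjusted p = 0.169). Wild-type embryos were at 3.34, 12.4 and 55.2 CPM, also with overlap, and null against wild-type was not called (1.13, edgeR adjusted p = 0.266). Over 23 alternative runs, ERCC scaling included, the log2 fold change of *Pou6f1* against het ran from 0.24 to 1.80.

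Among the genes that fell, *Scd2*, a fatty acid desaturase, was at 2.44, 7.05 and 37.8 CPM in null, 79.9, 218 and 521 in het and 10.3, 24.8 and 242 in wild-type embryos. Null and het embryos did not overlap, with a log2 fold change of -3.99 (SE 0.78, edgeR adjusted p = 0.00327), while null and wild-type embryos did, at -1.75 (edgeR adjusted p = 0.189). At E2.5 null embryos were at 2.44 to 7.05 CPM and wild-type embryos at 10.3 to 54.0, without overlap. At E2.75 they were at 33.5 to 37.8 and 24.8 to 242, with overlap. *Srebf2*, the transcription factor of sterol synthesis, was at 0.850, 2.44 and 7.69 CPM against 6.02, 45.4 and 116 in het embryos, at -3.86 (SE 1.12, edgeR adjusted p = 0.0489), with overlap. Wild-type embryos were at 0, 1.23 and 70.3 CPM, with a median under that of null embryos, and null against wild-type was not called (-2.20, edgeR adjusted p = 0.299). These merged values mix the stages. At E2.5 wild-type embryos were at 0 to 2.47 CPM and null embryos at 0.850 to 2.91. At E2.75 wild-type embryos were at 15.4 to 70.3 CPM and null embryos at 1.97 to 7.69, without overlap.

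*Ifnar1*, a chain of the type I interferon receptor, was at 0, 3.05 and 5.64 CPM in null, 9.34, 20.6 and 34.4 in het and 6.99, 18.0 and 33.8 in wild-type embryos. Null embryos lay below all others, at -2.96 (SE 0.68, edgeR adjusted p = 0.0112) against het. *Ccne1*, cyclin E1 of the entry into S phase, was at 46.5, 153 and 215 CPM against 240, 292 and 372 in het embryos, again without overlap, at -1.15 (SE 0.28, edgeR adjusted p = 0.0185), while wild-type embryos, at 140, 306 and 520 CPM, overlapped null embryos. *Zfp438* was at 0, 0 and 1.22 CPM against 0.860, 7.54 and 17.9 in het and 0, 5.90 and 19.6 in wild-type embryos. *Bcl9*, a coactivator of WNT signalling, had no count in null embryos. It was at 0, 0.106 and 6.03 CPM in het and 0, 1.44 and 4.87 in wild-type embryos, with overlap. Pooled het embryos were at least 18.8-fold higher than null embryos (edgeR adjusted p = 0.0524). That fold rests on het embryos at 2.91, 4.91 and 6.03 CPM, the others being at or near 0.

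**Figure D5:**
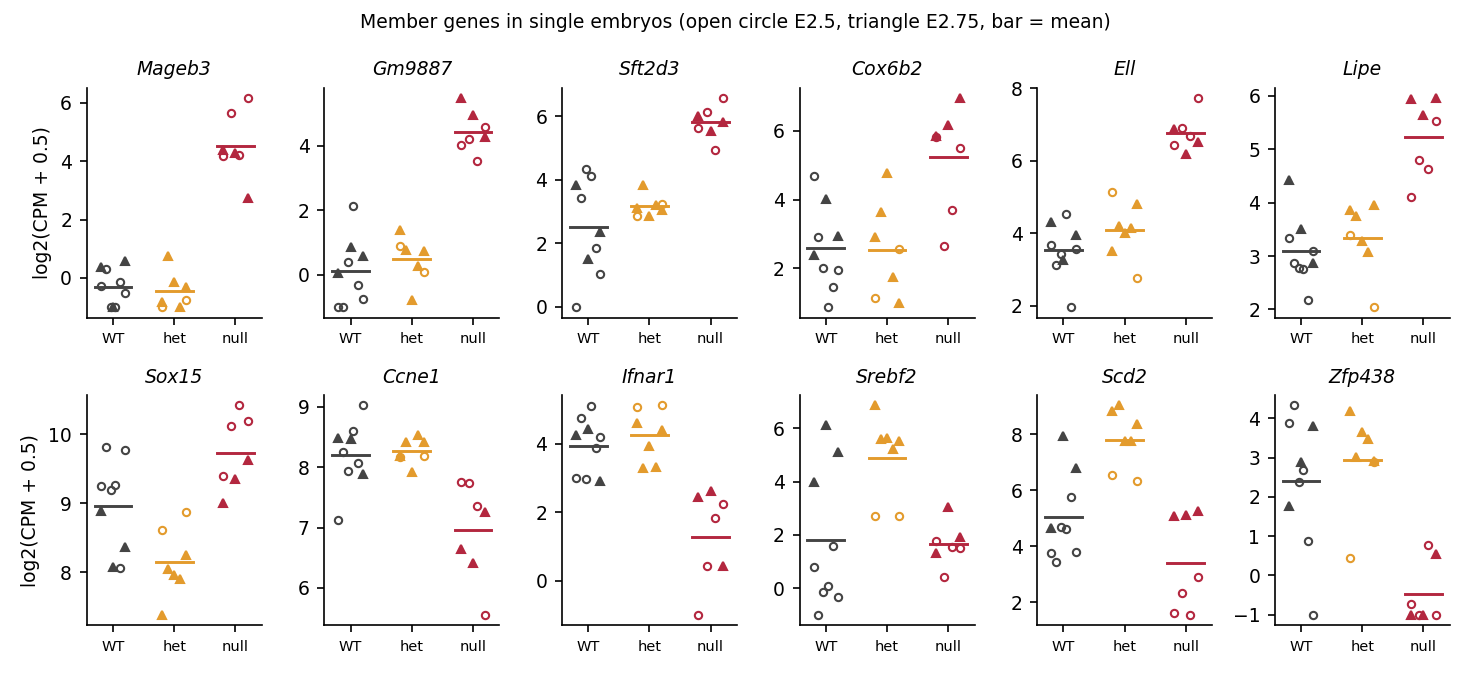
Level of 12 member genes in each embryo, as log2(CPM + 0.5), for 9 wild-type, 7 het and 7 null embryos, with E2.5 as open circles, E2.75 as triangles and the mean as a bar. *Ell* has null embryos at 72.8 to 212 CPM above all others, and *Ifnar1* has them at 0 to 5.64 CPM below all others.

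No lineage factor or exosome gene with a member region was called between null and het embryos in the main edgeR fit. *Zfp42* was at 88.7, 123 and 251 CPM in null and 176, 203 and 354 in het embryos, at a log2 fold change of -0.78 (SE 0.26, edgeR adjusted p = 0.0919), under the 2-fold limit. *Klf2* was at 73.9, 113 and 226 CPM against 59.6, 68.1 and 163, at 0.60 (SE 0.27, edgeR adjusted p = 0.242). *Exosc9* was at 84.3, 212 and 355 CPM against 69.0, 160 and 202, and the embryos overlapped in all 3 genes. None of the genes of the 12 strongest regions was called in that fit either, with *Znrf3* at -0.72 (SE 0.49, edgeR adjusted p = 0.487) and *Morc3* at -0.65 (SE 0.28, edgeR adjusted p = 0.223). Over 23 alternative runs the log2 fold change ran from -2.02 to -0.32 for *Znrf3* and from -1.76 to -0.49 for *Morc3*. For *Zfp42* it ran from -2.07 to -0.28, so all 3 lay on both sides of the 2-fold limit. These runs include ERCC scaling, under which the median of all genes was -1.08.

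Against wild-type embryos, 27 member genes rose in null embryos (0.893%) and 52 fell (1.72%), where 3.66% of all genes tested rose and 1.59% fell, and 1.67% and 1.73% of protein-coding ones. This comparison uses the same null embryos as the first. Without E2.5 wild-type replicate 6, the embryo with low *Dis3*, 22 rose and 56 fell. Of the member genes called against het, 12 that rose and 30 that fell were called here too. The same share over all genes is not given here, so these counts are not read as particular to the members. *Ell* had a log2 fold change of 3.21 (edgeR adjusted p = 8.57e-06), *Mageb3* 6.19 (edgeR adjusted p = 1.17e-04) and *Ifnar1* -2.68 (edgeR adjusted p = 0.0181). Between het and wild-type embryos edgeR called 0 member genes in either direction, as it called 0% of all genes tested. At an unadjusted p under 0.05 there were 209 of 3025 members (6.91%) and 934 of 13415 genes (6.96%). DESeq2 called 5 member genes up and 4 down, beside 37 and 28 over all genes. The difference of the null effect between E2.5 and E2.75 was tested as an interaction, which called 0 of 18677 genes by edgeR. At an unadjusted p under 0.05 there were 181 of 3227 member genes, for which the share over all genes is not given here.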

How the data were processed

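Per the labels and the study's methods, the authors aligned ChIP-seq reads with Bowtie2 2.4.4 to GRCm38 and called peaks per replicate with MACS2 2.2.7.1 against each control. The deposited peak lists hold fold enrichment at the summit, -log10 p-values and -log10 q-values, a score and the summit offset. Embryo reads were trimmed with cutadapt 3.4, aligned with STAR 2.7.8a and deposited by the authors as raw read counts per gene from HTSeq 0.11.4, counted without strand.

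Peaks were intersected with bedtools 2.31.1 (1 bp) and placed by GENCODE M21 start sites. Windows of 200 bp were read from GRCm38.p6. For the counts of 55487 genes, edgeR 4.0.16 was run in R 4.3.3 (filterByExpr, TMM, quasi-likelihood test, all genotypes in 1 fit, Benjamini-Hochberg), both stages merged by genotype, without the ERCC and summary lines (reads outside exons were 21.0% to 43.9%). CPM used the total counts of the genes that passed the filter, scaled by the TMM factor of each embryo. The test was checked on simulated data. Alternatives were DESeq2 1.42.0, ERCC scaling, no or another count filter, each stage alone, a replicate block, and leaving out each embryo. Named genes were the 12 strongest regions, at most the 12 largest called changes each way, listed genes, family leaders and the regions nearest the limits. Members and lists were chosen with earlier results of these data known. Embryos are separate animals, and the study calls the ChIP replicates biological. PCR reads are not independent molecules. Input libraries were not used here.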

Additional observations from a re-analysis of the deposited data

Results flagged for a closer look

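In 78 groups of 4 to 6 embryos of 1 genotype and stage, 1 embryo lay far from the others for 9 member genes. For normally distributed values chance alone gives about 1 in 20 groups. Whether CPM values meet that condition was not tested, and all 9 were the highest of their group. In E2.5 wild-type embryos the highest value stood apart for *Cox6b2* (replicate 1, 25.1 CPM, next 6.97), *Gm9887* (replicate 4, 3.89 CPM, next 0.825), *Thap8* (replicate 3, 5.36 CPM, next 0.290), *Scd2* (replicate 5, 54.0 CPM, next 25.2), *Nup107* (replicate 5, 56.6 CPM, next 37.0) and *Pou6f1* (replicate 3, 28.5 CPM, next 12.4). In E2.75 het embryos it did for *Sft2d3* (replicate 2, 13.9 CPM, next 8.69) and *Srebf2* (replicate 1, 116 CPM, next 49.1). In E2.5 null embryos it did for *Zfp438* (replicate 3, 1.22 CPM, next 0.104).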

How the results depend on the processing

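The number of regions, 3031, was 635 when overlaps had to cover 50% of both intervals, 3054 without replicate 1 and 15287 without replicate 2. For null against het, 36 member genes up and 75 down became 64 and 133 with DESeq2, 8 and 1341 with ERCC scaling, 0 and 1 at E2.5 alone (where there are 2 het embryos), and 13 and 37 for genes that overlap no other. Leaving out 1 embryo gave 23 to 44 up and 45 to 90 down. For null against wild-type, 27 up and 52 down became 58 and 107 with DESeq2, 10 and 117 with ERCC scaling, 67 and 106 with no count filter, 9 and 21 at E2.5 alone, and 12 and 28 without overlapping genes, with 106 down at E2.75 alone. Over all genes, 491 up and 213 down became 1187 and 472 with DESeq2 and 317 and 469 with ERCC scaling. Leaving out 1 embryo gave 22 to 36 member genes up and 46 to 66 down. For het against wild-type, 0 and 0 became 5 and 4 with DESeq2 (37 and 28 over all genes), and 0 to 1 up and 0 down without 1 embryo. The median log2 fold change of members against het, -0.12, was -1.20 with ERCC scaling, -0.24 with no count filter and -0.17 to -0.09 without 1 embryo. With ERCC scaling, 7 of the 36 genes called up against het changed sign and 8 kept the call, *Sox15* (0.44) and *Lipe* (0.89) lost theirs, and *Klf2*, not called, changed sign to -0.49. The causes were not tested.

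With the replicate number as a block, null against het had 17 member genes up and 31 down. Deviations of same-numbered embryos correlated at -0.106 to 0.0858, so the numbers do not pair the embryos. Read over whole intervals, which are wider in members, the GC box was in 91.4% of members and 62.6% of IgG-only intervals and the octamer in 1.42% and 0.724%. *Scd2* kept its call in every alternative run. Depth limits the low genes, of which 342 were untested.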

Other observations

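The string CCACGCCC, or its reverse complement GGGCGTGG, was chosen after the printed windows and counts of strings of this length were seen. Its shares are therefore a description of these data only. The string was in 563 member windows (18.6%), 626 IgG-only windows (6.47%) and 1009 windows at gene starts (4.599%). It was in 11.98%, 17.5% and 26.2% of the weakest, middle and strongest of 3 equal groups by enrichment, and the *Znrf3* and *Ell* windows hold 2 copies each.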
